A study of Mus musculus with 36 samples.

Results

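The 150 transcripts described here had low ribosome footprints, relative to unstressed cells, 2 h after a long hyperosmotic stress was lifted, although milder stress had left them at least 0.5 of their unstressed level. Most were also low during the stress, but some were not, and some were back at their unstressed level early in recovery. They were chosen by their own footprint values. R is the mean RPKM (reads per kilobase of coding sequence, scaled to library size) of the 2 footprint libraries of a condition, with an unlisted transcript set to 0. Of 11037 transcripts listed in at least 1 footprint library, 6551 had an R of at least 10 in Normal Condition, and 5552 of these also kept at least 0.5 of it at 500 mOSM 2h. The 150 members are those of the 5552 eligible transcripts with the lowest ratio of R in 700 mOSM 2h Recovery 2h to R in Normal Condition. Members are called by their rank in that ratio, rank 1 being the lowest.

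The cells were mouse embryonic fibroblasts of strain C57BL/6J, connective tissue cells grown from embryos, with no allele or other agent named in the labels. Sorbitol, a sugar alcohol that draws water out of cells, was added to the medium. The 9 conditions were Normal Condition (no sorbitol), 500 mOSM 2h, 600 mOSM 2h, 700 mOSM 15min, 700 mOSM 2h, and each of the 700 mOSM exposures followed by a recovery in normal medium lasting either 15 min or 2 h. The exposure of 15 min is called short below and that of 2 h long. Each condition had 2 Ribo-seq and 2 RNA-seq libraries, made from cytoplasmic extracts of whole dishes. In such bulk extracts, fewer cells and less RNA per cell cannot be told apart.

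Ribosome profiling sequences the stretches of mRNA that ribosomes cover. The footprint density of a transcript goes up with the amount of its mRNA and with the rate at which ribosomes start on it, and goes down when ribosomes move faster. Cells in strongly hyperosmotic medium are known to shut down most initiation of translation and to restore it when the medium is returned to normal. RPKM is a share of the footprints of a library, so a lower value is a smaller share and says nothing of the total amount of translation.

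The files name transcripts by Ensembl identifier only, and 0 of the 150 member identifiers were found in the name tables used here. No member was given a gene name or a function, no sequence was matched, and the label of the cells was not checked against marker genes. Reads on listed transcripts ran from 732769 to 9102097 per Ribo-seq library, the fewest at 700 mOSM 2h and the most at 700 mOSM 15min Recovery 2h. RNA-seq libraries held 6851958 to 55262396 reads. Over transcripts listed in both Ribo-seq libraries of a condition, the mean chi-square per degree of freedom was 1.003 to 1.081, close to the 1 that sampling alone gives. It reached 1.305 at 700 mOSM 2h when a transcript unlisted in 1 library was set to 0. Members alone differed more in some stress conditions, with 1.786 at 600 mOSM 2h (112 members) and 1.547 at 700 mOSM 15min (39 members). With unlisted values set to 0 they had 3.89 at 700 mOSM 2h (30 members). On the values over all transcripts, the pair was treated as a single sample, and footprint values carry neither an SD nor a test.

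The members spanned a ratio of 0.182 to 0.535 at 700 mOSM 2h Recovery 2h, with a median of 0.488 against 0.949 over all eligible transcripts. These values chose the members and are a description only. The last 3 members, of ranks 148 to 150, had ratios of 0.534599, 0.534878 and 0.53544, and the first 3 transcripts outside had 0.535775, 0.535845 and 0.535852. The edge was not resolved at this depth. For 106 of the 150 members the 95% counting interval of the ratio reached above the first ratio outside, and for 299 of the 5402 other eligible transcripts it reached below the last ratio inside. These intervals cover counting error only. Rank 50 is a member only because it was listed in 1 of the 2 libraries of 700 mOSM 2h Recovery 2h, with 19.8 RPKM from 28 reads there and the other library set to 0, against 21.6 and 21.6 RPKM in Normal Condition. The other 149 members were listed in both.

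The choice of members was partly repeated between libraries. The rule applied to the libraries numbered 1 alone shared 104 members (69.3%) with the full set, and applied to those numbered 2 alone it shared 108 (72%). The 2 sets shared 70 transcripts (46.7% of each) with each other. The 150 chosen on the libraries numbered 1 had a median ratio of 0.471 in those libraries and of 0.511 in the libraries numbered 2, where 68 of them were at or under 0.5, against 46 (0.855%) of the other 5382 transcripts. The 150 chosen on the libraries numbered 2 had 0.477 there and 0.504 in the libraries numbered 1, with 73 at or under 0.5, against 37 (0.688%) of the other 5378. The low ratios recurred under the other replicate number, but both libraries of a condition count as 1 sample. For transcripts listed in both, the mean chi-square per degree of freedom was 1.045 in Normal Condition and 1.009 at 700 mOSM 2h Recovery 2h. Pairs this close made such recurrence likely in advance, so the split bears on counting error only. Whether the loss would repeat in a separate sample was not tested.

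Most members had a low footprint density for eligible transcripts, with 112 of 150 at up to 40 RPKM in Normal Condition, against 2533 of 5552. Their median R in Normal Condition was 24.8 RPKM, against 45.8 RPKM over eligible transcripts. Only 9 of 1107 eligible transcripts above 160 RPKM were members (0.813%), against 57 of 1253 up to 20 RPKM (4.55%). Among transcripts up to 40 RPKM, the ratio of 700 mOSM 2h Recovery 15min to Normal Condition, of which the rule used the denominator, had a median of 0.695 in 112 members and 0.993 in 2533 eligible transcripts. Lower density means fewer reads and a noisier ratio, and the part of this in the choice was not tested. A member had a median of 172 reads over the 2 libraries of 700 mOSM 2h Recovery 2h and 587 over the 2 of Normal Condition.

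The members were also long. Their coding sequences had a median of 515 codons and their transcripts of 3468 nt, against 382 codons and 2501 nt over eligible transcripts. The share of eligible transcripts that were members was 1.46% above 100 and up to 200 codons, 3.53% above 400 and up to 800, 4.5% above 800 and up to 1600, and 3.25% (4 of 123) above 1600. For the non-coding length, which is the transcript length less the coding length, the share was higher in each longer class, with 16 of 1405 eligible transcripts chosen up to 500 nt (1.14%) and 17 of 300 above 4000 nt (5.67%). At the start they carried fewer footprints for their RNA: footprint RPKM over RNA FPKM (fragments per kilobase, scaled to library size) in Normal Condition had a median of 1.51 in members and 2.22 in eligible transcripts.

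Members were lower than eligible transcripts in every stress condition. Over Normal Condition their median footprint ratio was 0.642 at 500 mOSM 2h, 0.348 at 600 mOSM 2h, 0.106 at 700 mOSM 15min and 0.17 at 700 mOSM 2h. The medians of all eligible transcripts were 1.06, 0.996, 0.481 and 0.537 in the same order. The value at 500 mOSM 2h is bounded by the rule, which removed every transcript under 0.5. The other 3 share their denominator, the Normal Condition libraries, with the rule.

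At 600 mOSM 2h, 128 of the 150 members were lower than at 500 mOSM 2h (85.3%), against 54.9% of eligible transcripts. The rule kept only transcripts with at least 0.5 at 500 mOSM 2h, for members and eligible transcripts alike, so this step is a description. At 700 mOSM the members were near the limit of detection. They had a median of 8.5 reads over the 2 libraries at 700 mOSM 15min and 15.5 reads at 700 mOSM 2h, and 49 and 39 of them were listed in neither library. Since the footprint lists of these conditions start at about 5 reads, absence from a list is not a measured 0.

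After the long exposure the median ratio of the members was 0.692 at 15 min of recovery and 0.488 at 2 h, against 0.994 and 0.949 over eligible transcripts. After the short exposure it was 0.963 at 15 min and 0.909 at 2 h, against 1.01 and 0.964 over eligible transcripts. There, 117 of 150 members (78%) were at 0.8 of their unstressed level or more at 2 h, against 88.3% of eligible transcripts. In 149 of 150 members R was lower 2 h after the long exposure than 2 h after the short one, as in 52.3% of eligible transcripts. The value after the long exposure is the one the rule took the lowest of, so this count follows largely from the choice.

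The gap between the exposures was present at 15 min of recovery, in libraries that the rule did not use. The ratio of 700 mOSM 2h Recovery 15min to 700 mOSM 15min Recovery 15min had a median of 0.726 in members and 0.997 in eligible transcripts. The ratio of 2 h to 15 min of recovery had a median of 0.69 after the long exposure and 0.958 after the short one, with 0.949 and 0.958 over eligible transcripts. Of the 150 members, 127 were lower at 2 h than at 15 min after the long exposure, and 120 were higher at 15 min of recovery than under 700 mOSM 2h and lower again at 2 h (80%, against 42% of eligible transcripts). These values after the long exposure include the level that chose the members and partly restate that choice, whereas the ratio after the short exposure uses no such value.

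**Figure D1:**
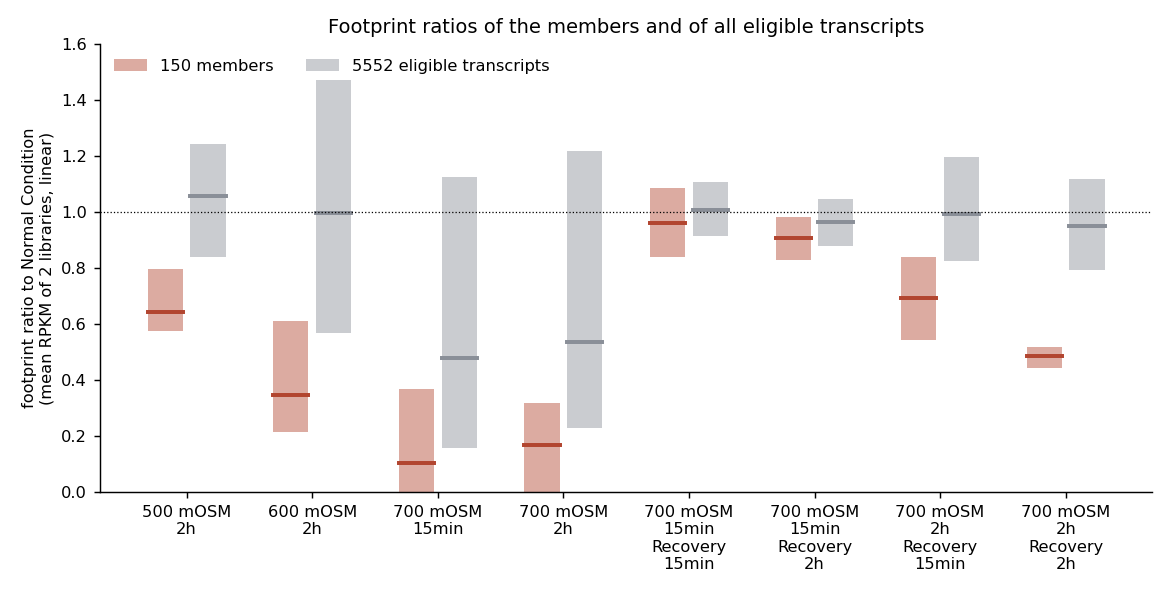
Footprint ratio to Normal Condition (linear axis, mean RPKM of 2 libraries) in the 8 other conditions, for the 150 members (red, left) and the 5552 eligible transcripts (grey, right); lines are medians and boxes run from the lower to the upper quartile over transcripts. Members are near 1 at both times after the short exposure (0.963 and 0.909) and at 0.692 and 0.488 after the long one; the values at 500 mOSM 2h and 700 mOSM 2h Recovery 2h were used to choose them.

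Members differed in their level at 15 min of long recovery. There, 19 members were at or above their unstressed level, with a median ratio of 1.17, and another 30 were between 0.8 and 1. Since the rule holds every member at or under 0.535 at 2 h, all 49 had to be lower at 2 h than at 15 min. In 27 members the ratio was already under 0.5 at 15 min, with a median of 0.418, and only 7 of these were lower at 2 h, where their median was 0.454. These 27 had the deepest loss at 600 mOSM 2h too, with a median ratio of 0.206, against 0.562 in the 19 that were at or above their unstressed level at 15 min.

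The 5 members that were highest at 15 min of long recovery, of ranks 56, 57, 76, 78 and 133, were above their unstressed level there and below it at 2 h. Rank 57, with a coding sequence of 242 codons, had 18.6 and 19.1 RPKM in Normal Condition, 34.1 and 35.96 RPKM at 700 mOSM 2h Recovery 15min and 8.35 and 9.23 RPKM at 700 mOSM 2h Recovery 2h. Rank 133, with 86 codons, had 29.9 and 27.1 RPKM in Normal Condition, 55.8 and 70.2 RPKM at 15 min of long recovery and 16.8 and 13.4 RPKM at 2 h. In both, the libraries of the 3 conditions did not overlap. They rest on few reads, with 124 and 79 over the 2 libraries at 15 min.

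Rank 1, ENSMUST00000126610, had the deepest loss and high counts. Its coding sequence has 166 codons and its transcript 1242 nt. It had 285.0 and 278.2 RPKM at 700 mOSM 2h Recovery 2h, from 1297 reads, against 1549 and 1540 RPKM in Normal Condition, from 11405 reads. The ratio was 0.182 with a 95% counting interval of 0.172 to 0.193. No other member was close, since rank 2 was at 0.288 and rank 5 at 0.361.

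Rank 1 was below its unstressed level in every stress condition, with no steady order beyond 600 mOSM. It had 1024 and 1018 RPKM at 500 mOSM 2h, 360.1 and 360.8 RPKM at 600 mOSM 2h, 342.4 and 359.1 RPKM at 700 mOSM 15min, and 407.2 and 401.5 RPKM at 700 mOSM 2h. After the short exposure it had 859.0 and 872.9 RPKM at 15 min and 1466 and 1495 RPKM at 2 h, which is 0.959 of its unstressed level. After the long exposure it had 418.1 and 422.0 RPKM at 15 min, and less again at 2 h, as given above. Its RNA was hardly lower, with 841.4 and 879.6 scaled FPKM at 2 h of long recovery against 1011 and 965.4 scaled FPKM in Normal Condition, a log2 difference of -0.20 ± 0.06 (SE, n = 2 libraries each; limma, adjusted p = 0.0258). That call was lost without a filter on low values, with only the 2 groups in the fit, and without 700 mOSM 2h Recovery 2h replicate 1, where the change was -0.17. Under 700 mOSM the RNA of rank 1 was higher than in Normal Condition, while its footprints were low. The log2 difference was 0.51 ± 0.07 at 2 h and 0.27 ± 0.06 at 15 min (SE, n = 2 each; limma, adjusted p = 1.99e-05 and 0.00192).

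Rank 7, ENSMUST00000035105, was below its unstressed level at 500 and 600 mOSM 2h, with ratios of 0.547 and 0.677, but above it at 700 mOSM. Its coding sequence has 296 codons. It had 547 and 566 RPKM at 700 mOSM 2h Recovery 2h against 1513 and 1497 RPKM in Normal Condition, a ratio of 0.37. Under 700 mOSM it had 3781 and 3681 RPKM at 15 min and 2596 and 2510 RPKM at 2 h. Its RNA was also higher there, by 0.66 ± 0.07 on the log2 scale at 700 mOSM 2h (SE, n = 2 each; limma, adjusted p = 1.1e-06), but at 2 h of long recovery its RNA differed by -0.03 ± 0.06 (adjusted p = 0.792).

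At 700 mOSM 15min, 14 of the 150 members were above their unstressed level (9.33%, against 28.5% of eligible transcripts). Of the 33 members over 800 codons, 10 were above it (30.3%), against 44.5% of 768 eligible transcripts of that length. All 4 members over 1600 codons were between 2.34 and 3.15 times their unstressed level. Eligible transcripts over 1600 codons were not summarised apart, so whether this is particular to the members was not tested. Of the 66 members above 400 and up to 800 codons, 0 were above it, against 16.3% of 1870 eligible transcripts. Of the 14 members up to 200 codons, 3 were (21.4%), against 44.9% of 1055 eligible transcripts. Of the 37 members above 200 and up to 400 codons, 1 was (2.7%), against 24.9% of 1859 eligible transcripts, and this was rank 7. The shares of members were below those of eligible transcripts in all 4 length classes, and the differences were not tested.

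Rank 4, with 1945 codons, had 35.4 and 36.8 RPKM in Normal Condition, 84.4 and 84.8 RPKM at 700 mOSM 15min, 7.82 and 6.89 RPKM at 700 mOSM 2h, and 13.7 and 11.9 RPKM at 700 mOSM 2h Recovery 2h. So the same transcript was above its unstressed level at 15 min of 700 mOSM and far below it at 2 h. Rank 102, ENSMUST00000001547, with 1454 codons, showed the same order at higher counts, with 397 and 389 RPKM in Normal Condition, 1112 and 1081 RPKM at 700 mOSM 15min, 76.7 and 76.0 RPKM at 700 mOSM 2h, and 200.3 and 201.3 RPKM at 700 mOSM 2h Recovery 2h.

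**Figure D2:**
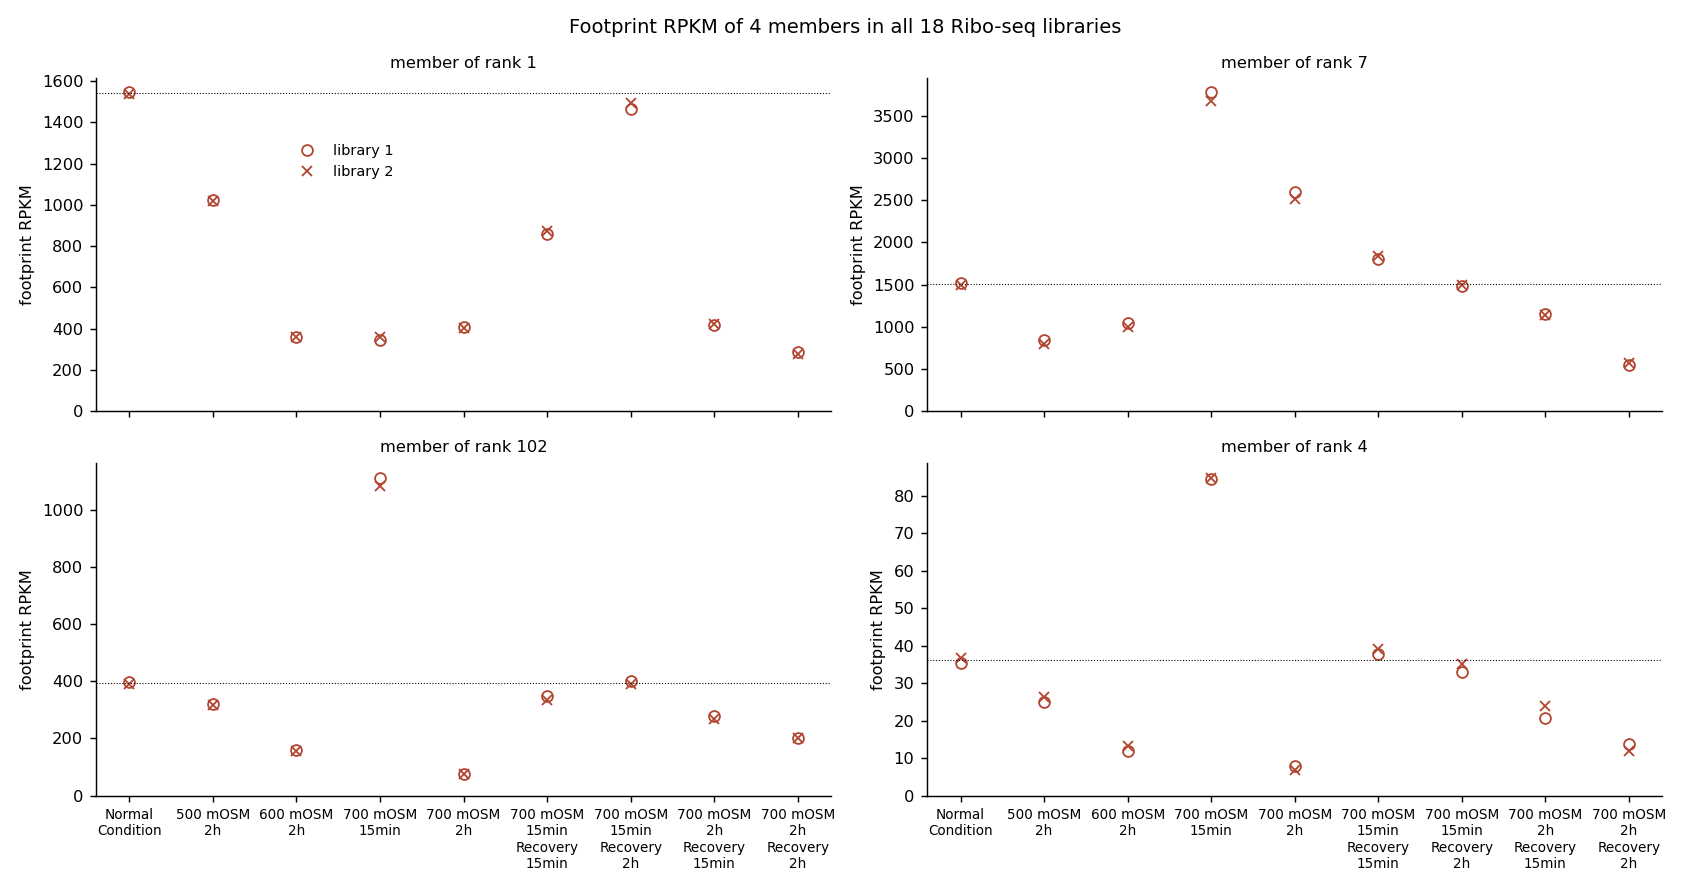
Footprint RPKM (linear axes from 0) of the members of ranks 1, 7, 102 and 4 in the 2 libraries of each of the 9 conditions; circles and crosses are the libraries and the dotted line is the mean of Normal Condition. All 4 are below the line at 700 mOSM 2h Recovery 2h (ratios of 0.182, 0.37, 0.51 and 0.354), and ranks 7, 102 and 4 are above it at 700 mOSM 15min (ratios of 2.48, 2.79 and 2.34).

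RNA-seq libraries were not used to choose the members and were tested. FPKM values were scaled between libraries, and 147 members were among the 9275 transcripts with a mean scaled FPKM of at least 2. Calls are at an adjusted p under 0.05 from limma, Benjamini-Hochberg adjusted over all 9275. Comparisons with Normal Condition share its 2 libraries, which differed most among the RNA pairs, with a mean chi-square of 47.1 per degree of freedom (3.44 to 23.0 in the other 8 pairs). Nothing in the labels says that the libraries came from separate cultures. The p-values therefore reflect only how far these libraries differ, and that spread may be technical.

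At 700 mOSM 2h Recovery 2h, RNA fell in 39 of the 147 members (26.5%) against Normal Condition and rose in 6 (4.08%). Over all tested transcripts 8.28% were called lower and 13.9% higher. Over the 5521 eligible transcripts tested, 9.51% were called lower and 12.4% higher. The fall was small: the median log2 change was -0.13 in members and 0.02 over all transcripts tested, 110 of 147 members were below 0, and 0 members passed a 2-fold change on the log2(scaled FPKM + 1) scale, while 58 had an unadjusted p under 0.05 in the lower direction. The counts depended on single libraries: without RNA-seq Normal Condition replicate 2 there were 63 lower and 20 higher, against 22% and 27.7% of all transcripts tested, and without 700 mOSM 2h Recovery 2h replicate 2 there were 25 and 2, against 4.13% and 9.52%. The calls over all transcripts thus moved with those of the members. The RNA-seq libraries of 700 mOSM 2h Recovery 2h listed 15613 and 15948 transcripts, more than the 12370 to 14080 of the others, and whether this bears on the calls was not tested.

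Relative to Normal Condition, footprints were lower than RNA in nearly every member. At 2 h of long recovery the footprint ratio to Normal Condition was divided by the RNA ratio. The median was 0.529 in members and 0.947 in eligible transcripts. The value was below 1 in 149 of 150 members, against 58.75% of eligible transcripts. It was at or under 0.5 in 56 members, against 96 of 5551 eligible transcripts. The numerator chose the members, so this is a description. On the log2 scale the median footprint change was -1.04 and the median RNA change -0.13. In 15 members RNA was lower by at least 0.5 of the footprint change. In 39 members (26%) RNA was above its level in Normal Condition, against 49.09% of eligible transcripts.

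**Figure D3:**
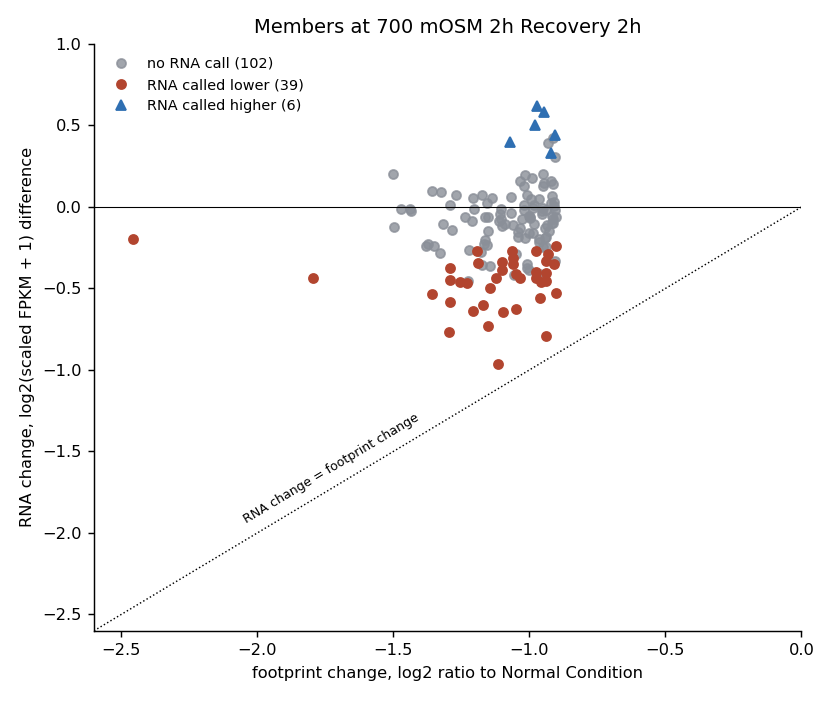
RNA change (difference of log2(scaled FPKM + 1)) against footprint change (log2 ratio of mean RPKM) at 700 mOSM 2h Recovery 2h over Normal Condition, for the 147 members tested; red circles mark the 39 members with RNA called lower, blue triangles the 6 called higher and grey circles those without a call, and the dotted line marks equal change. Footprint changes lie at -0.90 or below by choice, while the median RNA change is -0.13.

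The 39 members with lower RNA had a median footprint ratio of 0.468 at 2 h of long recovery, against 0.493 in the 102 without a call, a ratio that the rule held in a narrow range. In conditions whose footprints the rule did not use, apart from Normal Condition as the denominator, the order of the medians varied. They were 0.63 against 0.739 at 700 mOSM 2h Recovery 15min, 0.308 against 0.335 at 600 mOSM 2h and 0.135 against 0.17 at 700 mOSM 2h. At 700 mOSM 15min they were 0.155 against 0.0755. After the short exposure they were 0.919 against 0.97 at 15 min of recovery and 0.923 against 0.884 at 2 h. At 700 mOSM without recovery the members were near the limit of detection. These differences were not tested. The largest fall was that of rank 52, with 3.49 and 3.40 scaled FPKM at 700 mOSM 2h Recovery 2h against 6.87 and 8.53 scaled FPKM in Normal Condition, a log2 change of -0.96 ± 0.15 (SE, n = 2 each; limma, adjusted p = 0.000242). Ranks 122, 16 and 45 followed, with log2 changes of -0.79, -0.77 and -0.73. For rank 45 the scaled FPKM was 44.2 and 42.7 at 2 h of long recovery, against 80.9 and 65.5 in Normal Condition, so the libraries of the 2 conditions did not overlap.

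RNA rose in 6 members whose footprints were low. ENSMUST00000001547, rank 102, had the largest rise, with 113.5 and 124.3 scaled FPKM at 700 mOSM 2h Recovery 2h against 61.9 and 95.9 scaled FPKM in Normal Condition (log2 change 0.62 ± 0.13, SE, n = 2 each; limma, adjusted p = 0.00269). Its RNA was called higher than in Normal Condition in all 8 other conditions, with log2 changes of 0.62 to 1.28, and its 2 Normal Condition libraries lay below the 16 others. The other 5, of ranks 62, 98, 115, 130 and 145, had log2 changes of 0.33 to 0.58. Without RNA-seq Normal Condition replicate 1 the change of rank 102 was 0.31 and still called, while those of ranks 115 and 145 were 0.24 and 0.25 and no longer called. Ranks 62 and 130 lost their calls under other settings, and ranks 98 and 102 kept theirs under every setting tried.

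Under stronger stress RNA was called lower in more members, and also in more of all transcripts tested. At 500 mOSM 2h, RNA fell in 5 and rose in 3 of the 147 members, against backgrounds of 1.89% and 1.55% of all transcripts tested. At 600 mOSM 2h it fell in 23 members (15.6%) and rose in 8 (5.44%), against backgrounds of 9.11% and 3.87%. At 700 mOSM 15min it fell in 73 members (49.7%) and rose in 14 (9.52%), against backgrounds of 30.5% and 19.3%. At 700 mOSM 2h it fell in 77 members (52.4%) and rose in 16 (10.9%), against backgrounds of 31% and 18.7%. There, 24 members were lower by 2-fold or more, and the median log2 change of members was -0.40.

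The share of members with lower RNA at 700 mOSM 2h was 52.4%, against 31% of all transcripts tested. Among the 5521 eligible transcripts tested, 26.4% were called lower there and 26.4% higher. At 500 mOSM 2h the share of members with lower RNA was 3.4% against 1.89% of all, which rests on 5 calls and is near the background. There, 3 members were called lower without 500 mOSM 2h replicate 1, against 1.88% of all, and 22 were called lower and 21 higher without Normal Condition replicate 2, against 14.5% and 13.1% of all. RNA then came back in part. From 700 mOSM 2h to 2 h of recovery it rose in 78 members and fell in 30 (53.1% and 20.4%, against 42.1% and 24.1% of all transcripts tested), with a median log2 change of 0.23 against 0.12 over all. Among the eligible transcripts tested, RNA rose in 33.9% and fell in 33.4%, with a median log2 change of -0.01. Of the 77 members whose RNA was called lower at 700 mOSM 2h, 29 were still called lower at 2 h of recovery.

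After the other recoveries fewer members were called. At 700 mOSM 15min Recovery 15min, RNA fell in 10 and rose in 9 (2.59% and 4.39% of all transcripts tested). In the libraries labelled 700 mOSM 15min Recovery 2h it fell in 27 (18.4%) and rose in 5 (3.4%), against 8.37% and 4.92% of all. In those labelled 700 mOSM 2h Recovery 15min it fell in 18 (12.2%) and rose in 11 (7.48%), against 6.27% and 8.09%. The median log2 change of members was -0.12 and -0.09 in these 2 groups, against -0.13 at 700 mOSM 2h Recovery 2h. Below 0 were 102 and 97 of the 147 members, against 110. The small RNA fall was thus not particular to 700 mOSM 2h Recovery 2h. For the groups labelled 700 mOSM 15min Recovery 2h and 700 mOSM 2h Recovery 15min, the names of the deposited RNA files read the other way round from the labels. Groups follow the labels here, and which is right could not be settled. The RNA libraries of 700 mOSM 2h Recovery 2h and Normal Condition are not affected.

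**Figure D4:**
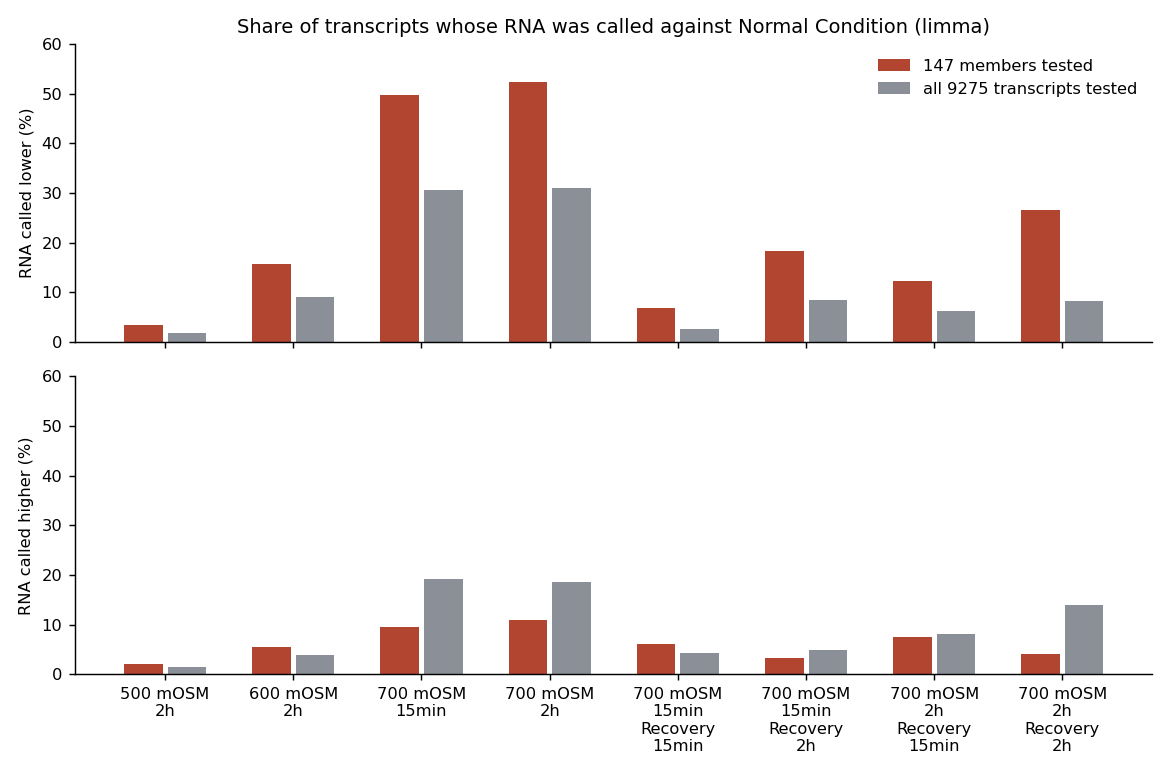
Percent of the 147 members tested (red, left) and of all 9275 transcripts tested (grey, right) whose RNA was called lower (top) or higher (bottom) than in Normal Condition at an adjusted p under 0.05 in limma. Lower calls cover 26.5% of members against 8.28% of all at 700 mOSM 2h Recovery 2h, and at 500 mOSM 2h both shares are small (3.4% against 1.89%); all 8 comparisons share the 2 Normal Condition libraries; the file names of 700 mOSM 15min Recovery 2h and 700 mOSM 2h Recovery 15min read as exchanged.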

How the data were processed

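Ribo-seq and RNA-seq were run on cytoplasmic extracts, with cycloheximide in the lysis buffer and footprints of 28 to 30 nt, per the labels' protocols. The deposited values are RPKM per transcript for Ribo-seq and FPKM per transcript for RNA-seq, per the file names. Per the submitters' processing notes, the tools were cutadapt, Bowtie and STAR and the build GRCm38, with no version or role recorded. The annotation is not given in the sources used here.

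Reads and lengths were solved from the steps of the deposited RPKM and FPKM values. On simulated footprint lists this gave all 18 totals and at least 99.2% of the read numbers in a library exactly. Lengths behind footprint values were multiples of 3 for 99.2% of transcripts and are called coding length. Footprint ratios use RPKM as deposited. RNA FPKM was divided by each library's median ratio over 5705 transcripts and tested as log2(scaled FPKM + 1), which understates changes of low transcripts, with limma 3.58.1 in R 4.3.3: 1 fit of 18 libraries and 9 group means, precision weights by group, an empirical Bayes trend on mean expression, two-sided p-values, and the filter of a mean of 2. On simulated data for 700 mOSM 2h Recovery 2h against Normal Condition, with 200 of 9275 transcripts changed, it recovered 73.5% at a log2 change of -0.5 and 100% at -1.

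The members, lists and rules were chosen with earlier results of these data known. Named members were picked by rules, and values are given here for only some of them. The rules named the 10 of lowest ratio, the 5 highest in Normal Condition, and the last 3 inside and first 3 outside the cut. Also named were up to 8 with the lowest and 8 with the highest RNA change past the threshold. The 5 highest at 700 mOSM 2h and at 700 mOSM 2h Recovery 15min were added. Rank 50 is described outside these rules, as the member listed in 1 library of 700 mOSM 2h Recovery 2h. The gene lists and cell type markers could not be applied without gene names, and few transcript identifiers are given. Alternatives were other scalings, filters, pseudocounts, weights and group choices, a replicate block, and leaving out single libraries.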

Additional observations from a re-analysis of the deposited data

Results flagged for a closer look

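Only the 34 named members were screened here, so other members may show the same pattern. The conditions screened were 700 mOSM 15min, 700 mOSM 2h, 700 mOSM 15min Recovery 15min and 700 mOSM 2h Recovery 15min. Members listed had both libraries of such a condition above both libraries of Normal Condition, with a ratio of means of at least 1.5. Both of their libraries of 700 mOSM 2h Recovery 2h were below those of Normal Condition. The difference between the conditions was not tested, since the 2 libraries of a condition count as 1 sample. At 700 mOSM 15min the ratio to Normal Condition was 2.34 for rank 4, 2.48 for rank 7, 3.6 for rank 85, 2.79 for rank 102, 1.64 for rank 122 and 3.15 for rank 145. At 700 mOSM 2h it was 1.7 for rank 7. At 700 mOSM 15min Recovery 15min it was 2.01 for rank 56. At 700 mOSM 2h Recovery 15min it was 1.65 for rank 56, 1.86 for rank 57, 1.59 for rank 76, 1.89 for rank 78 and 2.21 for rank 133. The same members had ratios of 0.354 to 0.534 at 700 mOSM 2h Recovery 2h, which the rule fixed to be low.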

How the results depend on the processing

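Counts of members with RNA called lower or higher were compared under the other settings. At 700 mOSM 2h Recovery 2h against Normal Condition, the lower count was 30 to 56 under the other fits and filters, and the higher count 3 without a filter on low values. Leaving out single libraries gave 25 to 63 lower and 2 to 20 higher, while 4.13% to 22% and 9.52% to 27.7% of all transcripts were called. At 700 mOSM 2h against Normal Condition, FPKM as deposited gave 8 higher in place of 16, and leaving out single libraries gave 12 to 26 higher. At 500 mOSM 2h against Normal Condition, the lower count was 3 with a minimum mean of 5, 9 with equal weights and 3 with only the 2 groups compared, and the higher count was 7 with equal weights and 1 with only the 2 groups. Leaving out single libraries there gave 3 to 22 lower and 3 to 21 higher, while 1.38% to 14.5% and 1.21% to 13.1% of all transcripts were called. The cause was not tested, except that fewer samples enter the fit of the 2 groups alone. At 700 mOSM 2h Recovery 2h against 700 mOSM 2h every count stayed within 1.5 times.

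Equal replicate numbers showed no steady pairing of the RNA libraries. Over 36 pairs of conditions the correlation of the differences between replicates ran from -0.307 to 0.308. Of these, 6 were above 0.1 and 6 under -0.1. The largest in size, of either sign, involved Normal Condition. A replicate block gave 41 lower and 6 higher at 700 mOSM 2h Recovery 2h, and moved no count by over 1.5 times.

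With RPKM divided by each library's median ratio, the median member ratio to Normal Condition was 0.156 at 700 mOSM 15min, 0.236 at 700 mOSM 2h, 0.933 at 700 mOSM 15min Recovery 2h and 0.671 at 700 mOSM 2h Recovery 15min. This scaling moved the median log2 ratio of abundant transcripts by 0.563 at 700 mOSM 15min and by 0.474 at 700 mOSM 2h. Without replicate 1 or 2, the median was 0.148 to 0.163 at 700 mOSM 2h and 0.694 to 0.696 at 700 mOSM 2h Recovery 15min. The scaled rule shared 127 members. As an alternative chosen after seeing the data, the 150 chosen on 1 replicate number and read in the other had medians of 0.511 and 0.504 at 700 mOSM 2h Recovery 2h, against 0.488. Of 371 RNA values of 34 named members under the alternatives, 20 lost their call, 8 gained one and 0 changed sign with a call. Depth limits the values at 700 mOSM most.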
